A study of Mus musculus with 8 samples.

Results

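The S100 calcium-binding protein genes measured here are *S100a1*, *S100a4*, *S100a6*, *S100a10*, *S100a11*, *S100a13* and *S100a16*, 7 of 35560 genes named on the arrays. They were taken by gene name, with all 10 of their probes among 55295 usable probes. The family was selected on its probe intensities and background calls in these same WT and KO cells, so that those values are a description and carry no test. The samples were 8 single endocardium cells from mouse heart tubes at embryonic day (E) 8.5 with 9 somites, each amplified to cDNA and hybridized to its own 1-colour Agilent array. The 4 WT cells had the genotype *Mesp1*+/+ and *Sox17* flox/flox without Cre, and the 4 *Sox17* KO cells were *Mesp1* Cre/+ and *Sox17* flox/flox. All cells therefore carried floxed *Sox17*, and only the KO cells carried Cre at *Mesp1*, so that Cre and the loss of *Sox17* cannot be told apart. *Mesp1* Cre acts across the early mesoderm, not only in the endocardium. No source names the embryo of a cell, so that a genotype counts as 1 sample and the spread is that between cells.

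S100 proteins are small proteins that mostly form dimers and carry a pair of EF-hand loops that bind calcium. Calcium opens a surface on which the dimer grips a partner, such as an annexin, a myosin heavy chain or a calcium channel, and through these partners the family is known for roles in membrane organization, cell motility and the handling of calcium in muscle. S100A10 is the exception in having lost calcium binding, and it holds annexin A2 in a complex at the membrane. Most S100 genes of the mouse lie side by side on chromosome 3.

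The map of the family shows how differently these neighbouring genes were detected. In RefSeq (GRCm38.p6) 5 of the 7 members lie close together, from *S100a1* at chr3:90511034-90514330 to *S100a6* at chr3:90612894-90614414. The other 2, *S100a11* at chr3:93520496-93526288 and *S100a10* at chr3:93555117-93564645, lie 28.8 kb apart, and 2824.8 kb separate *S100a11* from *S100a9*, an S100 gene of the larger cluster. *S100a1* and *S100a13* are transcribed away from each other, and their annotated spans overlap by 98 bases. A signal over the floor, a scaled intensity of 50, was measured for *S100a13* and *S100a16* in all 8 cells, for *S100a1* in 1 cell and for *S100a14*, which lies between *S100a13* and *S100a16*, in 0 cells.

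**Figure D1:**
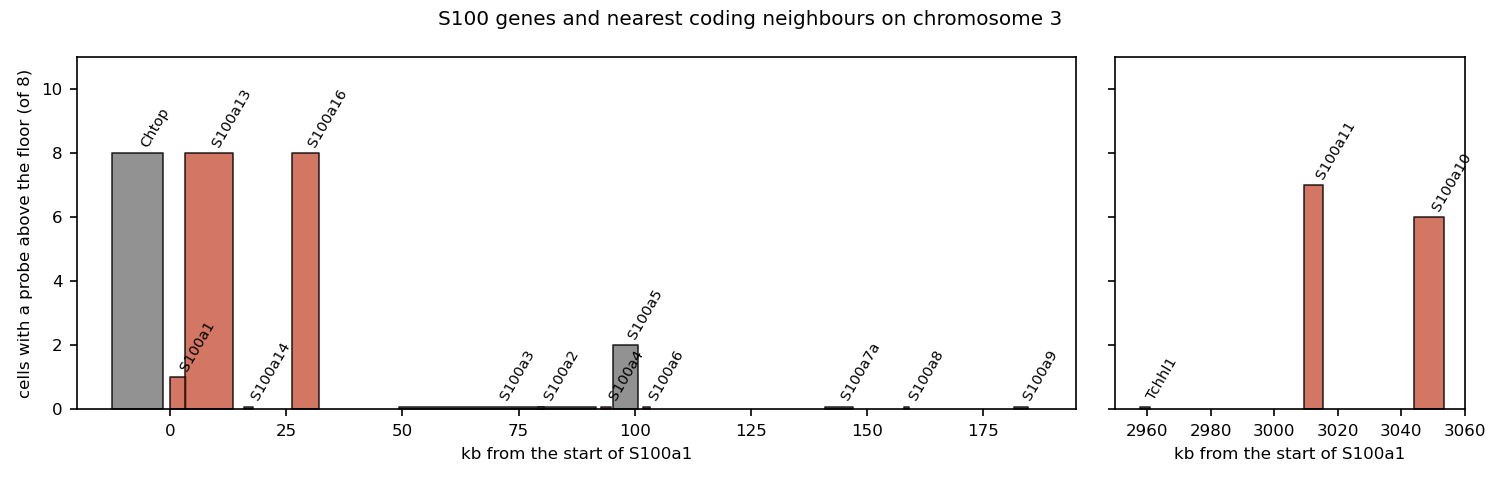
Number of the 8 cells in which a probe of each gene exceeded the floor (y axis), drawn at the gene's place on chromosome 3 in kb from the start of *S100a1* (x axis, 2 stretches). Members are red and other genes grey, and genes in 0 cells are drawn as a thin line: *S100a13* and *S100a16* stand at 8 cells with *S100a1* at 1 and *S100a14* at 0 beside them, and *S100a11* and *S100a10* stand at 7 and 6. The array annotation places the *S100a11* probe on another chromosome, so that its signal may not come from the place drawn.

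Upstream sequences were taken from RefSeq (GRCm38.p6) as windows from 250 bases before to 50 bases after a start site. Such windows were at hand for 6 members, and *S100a16* had 2 of them. Capitals mark ATTGTT, or AACAAT on the other strand, the core that SOX proteins such as SOX17 bind through their HMG box. It was found in 2 of the 7 windows of members, and in 10.7% of all 32851 windows of this length. The 2 windows printed here were picked because they hold these letters, and the other *S100a16* window does not. A match is a description of letters, not a site. In *S100a16* the match lies 96 bases before the start of the downstream of its 2 annotated starts, and in *S100a4* it lies 17 bases before the start.
*S100a16*, chr3:90540896-90541195, plus strand: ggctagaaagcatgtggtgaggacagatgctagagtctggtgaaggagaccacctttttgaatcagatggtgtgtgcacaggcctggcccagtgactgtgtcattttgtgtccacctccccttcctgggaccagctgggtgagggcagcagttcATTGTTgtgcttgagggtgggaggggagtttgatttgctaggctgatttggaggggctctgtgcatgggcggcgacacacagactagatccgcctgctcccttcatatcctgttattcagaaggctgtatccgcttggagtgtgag
*S100a4*, chr3:90603520-90603819, plus strand: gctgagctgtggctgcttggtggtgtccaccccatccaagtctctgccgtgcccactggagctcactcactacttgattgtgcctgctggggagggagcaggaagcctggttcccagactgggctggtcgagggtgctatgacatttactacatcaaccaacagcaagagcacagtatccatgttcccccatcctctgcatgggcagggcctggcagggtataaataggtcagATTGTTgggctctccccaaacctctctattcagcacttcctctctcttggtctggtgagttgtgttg

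The windows of *S100a1* and *S100a13* overlap, and their shared 204 bases are shown because the genes that start from them differed in detection, in 1 and 8 cells over the floor. The *S100a13* window is set on a start that lies downstream of the beginning of its annotated span, so that the windows' start sites do not overlap as the spans do. Here capitals mark the 104 bases between these start sites, from which *S100a1* is read to the left and *S100a13* to the right.
*S100a1* and *S100a13*, chr3:90514281-90514484, plus strand: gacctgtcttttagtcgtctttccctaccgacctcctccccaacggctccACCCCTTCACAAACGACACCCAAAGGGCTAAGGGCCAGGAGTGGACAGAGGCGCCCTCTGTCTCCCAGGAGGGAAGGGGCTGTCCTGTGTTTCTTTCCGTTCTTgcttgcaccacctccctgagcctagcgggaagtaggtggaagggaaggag

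For *S100a1*, *S100a4* and *S100a6* a 60-base probe lies where the proteins are alike, in the stretch that encodes the second EF hand and what follows it, and the probes are shown because related genes can share signal there. Capitals mark the letters TTCNAGGAGTA, the longest stretch that these probes share, where N is any base. The letters were taken from these probes, so that their presence here is given by the choice. In all, 6 of 55681 probes hold them in the printed direction (0.0108%), these probes included. Positions are those of the array annotation (mm9).
*S100a1*, chr3:90315191-90315250: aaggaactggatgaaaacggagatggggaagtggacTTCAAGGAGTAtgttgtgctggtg
*S100a4*, chr3:90409734-90409793: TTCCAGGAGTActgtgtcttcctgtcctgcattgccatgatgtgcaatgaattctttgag
*S100a6*, chr3:90418160-90418219: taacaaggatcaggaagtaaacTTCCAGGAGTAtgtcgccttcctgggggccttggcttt
Aligned on those letters without gaps, the *S100a1* probe had 67.4% of 46 bases in common with that of *S100a6* and 66.7% of 24 bases with that of *S100a4*, and the latter pair had 63.2% of 38 bases in common. Whether they share signal was not tested.

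The scanner software called between 11370 and 18175 probes well above background in a cell, with the fewest in WT cell 1. Scaling used the 50th percentile of the probes that passed this call on all 8 arrays, values under a floor of 50 were raised to it, and log2 was taken, so that 5.64 means at or under the floor and such values have no order. A level is given below as log2 scaled intensity, and a difference as the mean of KO cells minus that of WT cells on this scale. Levels of different probes cannot be compared. The 2 *Sox17* probes were not well above background in any cell of either genotype, so that the targeted gene did not check the genotypes. Of 10 endocardial and endothelial markers, 7 to 10 were well above background in WT cells and 6 to 9 in KO cells. By the same call, 1 of 5 blood markers was detected in each WT cell and 0 to 2 in KO cells, and 0 of 5 endoderm markers in any cell. By the floor, 6 to 9 of the endocardial and endothelial markers passed in cells of each genotype, whereas all 5 endoderm and all 5 blood markers were under it in every cell. Cardiomyocyte markers were also measured, 3 to 7 of 9 well above background in cells of each genotype, with summed scaled intensity from 318.2 to 34056 in WT cells and from 1001 to 48719 in KO cells, and with *Myh6* and *Tbx5* under the floor throughout. Of these 9 markers, 2 to 4 were over the floor in WT cells and 1 to 6 in KO cells. Their part in the results was not tested. The arrays shared 1 slide and 1 scan, with the genotypes in separate columns, so that position on the slide and genotype cannot be told apart.

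Of the 7 members, 1 was at least 5-fold higher in KO cells and 0 were at least 5-fold lower. Of the 20265 genes that were well above background in 1 cell or more, 3.22% were higher by this fold and 3.24% were lower. In the same member, *S100a16*, all KO cells exceeded all WT cells, as they did in 1.13% of those genes. The median difference was 0.61 over the members and 0.00 over all genes, but all 7 members were well above background somewhere by their choice, so that nothing is read from these figures. WT cells had 2, 4, 4 and 4 members over the floor and KO cells had 5, 3, 4 and 4.

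**Figure D2:**
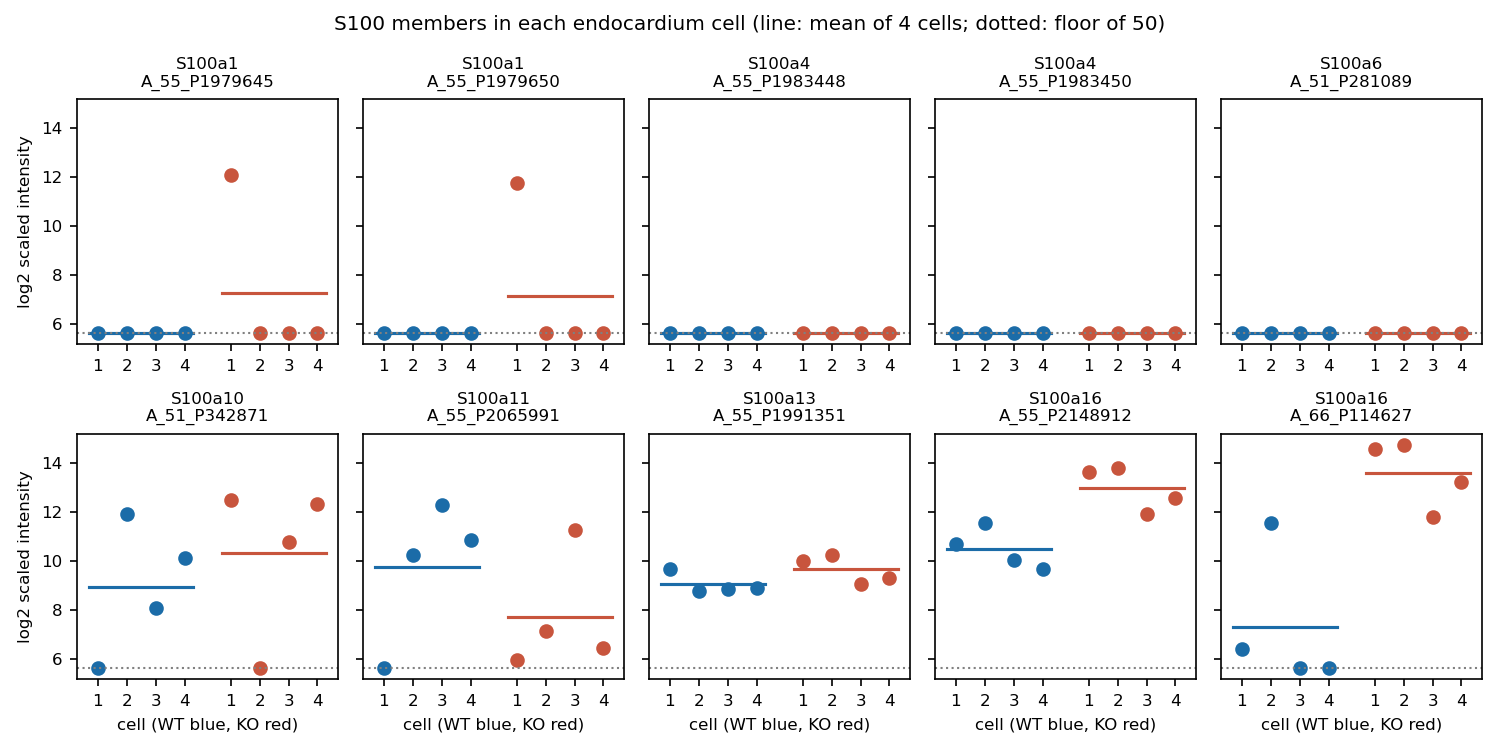
Log2 scaled intensity (y axis) of the 10 probes of the members in WT cells 1 to 4 (blue) and KO cells 1 to 4 (red), with a line for the mean of each genotype and a dotted line for the floor of 50. *S100a16* is the member whose KO cells all lie over its WT cells, with both probes, *S100a10* and *S100a11* spread over most of the scale within a genotype, and *S100a4* and *S100a6* lie at the floor in every cell.

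*S100a16*, a broadly expressed member of the family, had the largest difference of the members in the setting used here, although *S100a11* or *S100a10* exceeded it in several other settings. The probe that stands for the gene, A_55_P2148912 (chr3:90346529-90346588, mm9), has the higher mean log2 level over the 8 cells, 11.75 against 10.45, and is called the main probe. It read 10.70, 11.57, 10.06 and 9.67 in WT cells 1 to 4. In KO cells 1 to 4 it read 13.64, 13.81, 11.95 and 12.57. The genotypes did not overlap, although WT cell 2 and KO cell 3 were only 0.38 apart. The difference was 2.49, a 5.62-fold higher mean in KO cells, against an SD between cells within genotypes of 0.86. The gene was well above background in all 8 cells, as were 30.9% of the 20265 genes.

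The other *S100a16* probe (A_66_P114627, chr3:90346875-90346934, mm9) gave a larger gap. WT cells read 6.43, 11.55, 5.64 and 5.64, and KO cells read 14.57, 14.75, 11.82 and 13.22. WT cell 2 was thus near the KO cells while the other 3 WT cells were at or near the floor, where the main probe of the same gene had kept a level of 9.67 to 10.70. The difference was 6.27, with an SD between cells of 2.23. The probes ordered the cells almost alike (Spearman's rho 0.99, Pearson's r 0.97 over 8 cells that share their arrays and amplified cDNA), but they disagree on the size of the gap, and the reason was not tested. This probe lies 3′ of the main probe, and its reading was the higher of the pair in KO cells 1, 2 and 4. Levels of different probes cannot be compared, so that this order ranks no amounts and the choice by the mean is only a rule. That rule decides whether the gene is given with 2.49 or 6.27.

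**Figure D3:**
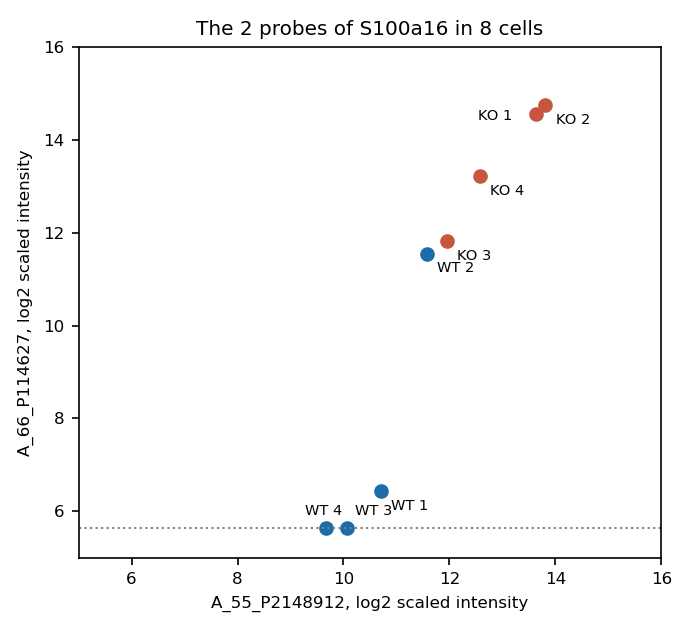
Log2 scaled intensity of the main *S100a16* probe (x axis) and of the other *S100a16* probe (y axis) in each WT (blue) and KO (red) cell, with the floor of 50 as a dotted line. The 4 KO cells and WT cell 2 lie at 11.55 or more on the y axis, and WT cells 1, 3 and 4 lie at 6.43 or less, although the x axis spreads these WT cells from 9.67 to 10.70.

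The size of the *S100a16* gap depended on the scaling. The main probe stayed under 5-fold with the 75th percentile (2.10), with quantile normalization (1.94), with normexp background correction (2.31), and with all probes in the percentile or the floor set before scaling (2.25 each), and the genotypes overlapped under the former 2. It was also under 5-fold when WT cell 4 (2.21), KO cell 2 (2.22) or KO cell 1 (2.27) was left out, and it reached 2.85 without WT cell 2. The other probe stayed past 5-fold, between 4.97 with a floor of 200 and 7.68 without WT cell 2.

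The genes most like *S100a16* over the 8 cells, among 9997 genes well above background in at least 4 cells, were *Dab2ip*, a Ras GTPase-activating protein gene (r = 0.98), *Slc16a7*, a monocarboxylate transporter gene (r = 0.96), and *Rps6kl1* (r = 0.95). Their differences were 6.34, 3.43 and 3.18. With so many genes searched over 8 cells, such values of r describe these cells only.

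*S100a13*, whose protein takes part in the release of FGF1 from cells, was the most even member. WT cells read 9.69, 8.78, 8.86 and 8.90, and KO cells read 10.02, 10.27, 9.06 and 9.33 (probe A_55_P1991351, chr3:90328442-90328501, mm9). Every cell was well above background, the genotypes overlapped because WT cell 1 exceeded KO cells 3 and 4, and the difference was 0.61 with an SD between cells of 0.50. Over all 8 cells its SD was 0.57, and 30.9% of the 6259 genes well above background in every cell had a smaller one. *S100a16* stood at 1.55 on that measure, above 77.2% of them.

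The remaining spread of *S100a13* was set beside the scaling of the arrays. Its log2 value had r = 0.79 over 8 cells with the log2 factor by which each array was multiplied. The same r was 0.37 for *S100a16*, -0.54 for *S100a10* and -0.72 for *S100a11*. That factor is part of every scaled value, so that a positive r is partly built in where the unscaled values vary little. No conclusion is drawn from these r. Before scaling the intensity of *S100a13* lay between 350.1 and 864.7, a 2.47-fold range, and its log2 difference was 0.37. Under the 75th percentile the difference was 0.23. The part of the scaling in the *S100a13* values was not tested. The 3 genes most like it were not protein genes by name but 2 long noncoding RNAs named by their position and an Ensembl transcript (r = 0.985 to 0.995).

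*S100a10*, which encodes the annexin A2 partner, ranged from the floor to some of its highest values within each genotype. WT cells read 5.64, 11.94, 8.10 and 10.13, and KO cells read 12.51, 5.64, 10.78 and 12.35 (probe A_51_P342871, chr3:93368437-93368496, mm9). Each genotype held 1 cell at the floor, WT cell 1 and KO cell 2, and each also held a cell near 12, so that the genotypes overlapped over almost their whole range. The gene was well above background in 3 WT cells and all 4 KO cells. KO cell 2 passed that call at a scaled intensity of 33.8, whereas WT cell 1, at 3.69, did not. The difference of 1.37 was smaller than the SD between cells of 2.97. Leaving out WT cell 1, the shallowest array, gave 0.27, and leaving out KO cells 1 or 4 gave 0.64 or 0.69. Without KO cell 2 the difference was 2.93, and without WT cell 2 it was 2.36.

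The order of the cells by *S100a10* was close to that by *Actc1*. *Actc1*, the cardiac actin gene, read 6.38, 12.80, 8.81 and 12.06 in WT cells and 15.32, 9.17, 12.70 and 13.55 in KO cells, which gave r = 0.94 and rho = 0.96 with *S100a10* over the 8 cells. The log2 sum of all 9 cardiomyocyte markers had r = 0.97 with *S100a10*, but *Actc1* made up 98.7% of that sum in KO cell 3 and 84.2% in KO cell 1, and the other 8 markers without it gave r = 0.64 and rho = 0.66. *Tnnt2*, the cardiac troponin T gene, went its own way, at 11.37 in WT cell 3 and 13.26 in KO cell 4 and at the floor elsewhere. *Myl4* and *Myl7*, atrial myosin light chain genes, were over the floor in WT cells 2 and 4 and KO cells 1 and 4. Both were at the floor in WT cells 1 and 3 and KO cell 2, where *S100a10* was low. They were also at the floor in KO cell 3, where *S100a10* read 10.78. The log2 sum of the 10 endocardial and endothelial markers had r = -0.68. *Actc1* ranked 12 among the 9997 genes searched, where the nearest were *Ssrp1*, a histone chaperone gene (r = 0.97), *Cmtm8* (r = 0.97) and the pseudogene *Tyms-ps* (r = 0.96). The points share arrays and amplification, and what the cardiomyocyte transcripts contribute to the *S100a10* level was not tested.

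*Anxa2*, the gene of its partner, followed *S100a10* less closely. It read 5.64, 8.42, 7.05 and 11.53 in WT cells and 7.82, 6.05, 12.21 and 13.28 in KO cells, with r = 0.68 and rho = 0.68. By r it ranked 258 among the 9997 genes searched. Another annexin gene, *Anxa6*, was closer to *S100a10*, with r = 0.83 and rho = 0.90. Cells with low *S100a10*, WT cells 1 and 3 and KO cell 2, also had low *Anxa2*, but the 2 cells with the highest cardiomyocyte sums, KO cell 1 and WT cell 2, had high *S100a10* and an intermediate *Anxa2*.

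**Figure D4:**
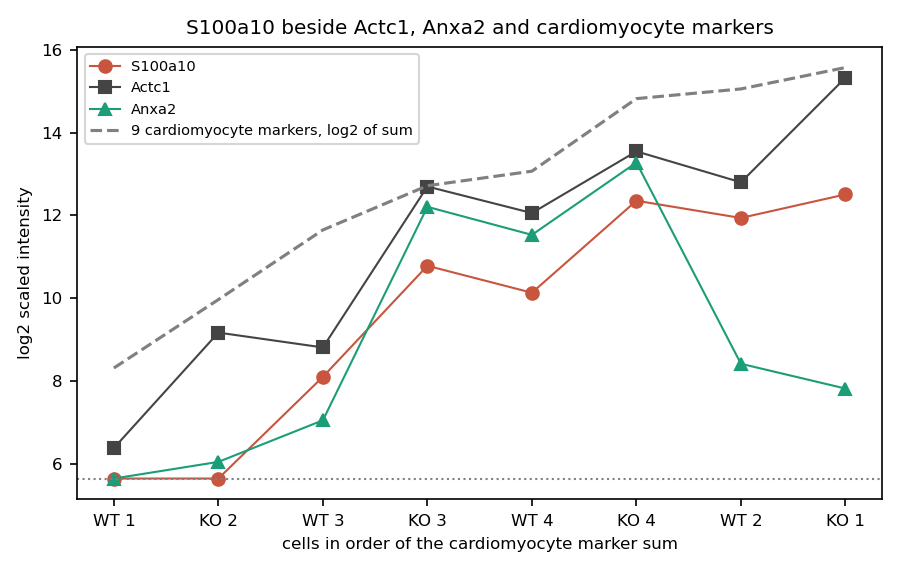
Log2 scaled intensity (y axis) of *S100a10* (red circles), *Actc1* (black squares) and *Anxa2* (green triangles), and the log2 summed scaled intensity of 9 cardiomyocyte markers (dashed), with the 8 cells ordered by that sum (x axis) and the floor of 50 dotted. Heights of different probes are not comparable. *S100a10* goes from the floor in WT cell 1 and KO cell 2 to 12.51 in KO cell 1 along with the sum, of which *Actc1* is up to 98.7%, whereas *Anxa2* stands at 13.28 in KO cell 4 and at 7.82 in KO cell 1.

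*S100a11*, whose protein binds annexin A1, was the member with the lower mean in KO cells. WT cells read 5.64, 10.26, 12.30 and 10.87, and KO cells read 5.97, 7.14, 11.26 and 6.46. Thus 3 WT cells were high, 3 KO cells were low, and WT cell 1 and KO cell 3 went the other way, so that the genotypes overlapped. The difference was -2.06 (4.17-fold) with an SD between cells of 2.66. It was -1.22 when WT cell 3 was left out, -3.44 when WT cell 1 was, and -3.25 when KO cell 3 was, and it was past 5-fold under the 75th percentile (-2.45). The array annotation places this probe (A_55_P2065991) on another chromosome than the gene, so that the copy it measures is uncertain. The genes most like it were an Ensembl transcript (r = 0.99), the nuclear pore gene *Nup155* (r = 0.98) and the ubiquitin ligase gene *Rnf216* (r = 0.98). *Anxa1* was not well above background in any cell with either of its 2 probes.

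*S100a1*, the member known for tuning calcium release and uptake in heart muscle, was measured in a single cell. KO cell 1 read 12.11 with the probe printed above and 11.77 with a probe nearer the 3′ end (A_55_P1979650, chr3:90314959-90315018, mm9), and the other 7 cells were at the floor with both. On the scaled intensity the first probe read 4419 in KO cell 1 and at most 20.1 elsewhere. No WT cell was well above background, and the difference without KO cell 1 was 0.00. The KO mean was 3.07-fold higher, with the other 7 cells all raised to the floor. This fold depends on the floor and is no lower bound. The difference of 1.62 became 1.12 with a floor of 200 and 2.35 with a floor of 10. KO cell 1 also had the highest *Actc1* of the 8 cells, which made up 84.2% of its cardiomyocyte marker sum of 48719. Without *Actc1* that sum was 7677, under the 26923 of WT cell 2 and the 16976 of KO cell 4. The partners of S100A1 in muscle were hardly measured in it: *Ryr2* was not well above background in any cell, and *Atp2a2*, the calcium pump gene SERCA2, was at the floor in all KO cells.

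*S100a4* and *S100a6*, known for binding nonmuscle myosin and the calcyclin-binding protein, were faint in every cell. The *S100a4* probe printed above was well above background in 7 cells, yet its scaled intensity lay between 5.25 and 28.3 and never reached the floor, and its 3′ probe (A_55_P1983448, chr3:90409908-90409967, mm9) was not well above background in any cell. The *S100a6* probe was likewise well above background in 7 cells, at a scaled intensity from 5.51 to 39.4. Since both lay under the floor in every cell, no fold between genotypes is read from them. Signal of this kind, detected but under the floor in all 8 cells, was met in 28.0% of the 20265 genes.

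**Figure D5:**
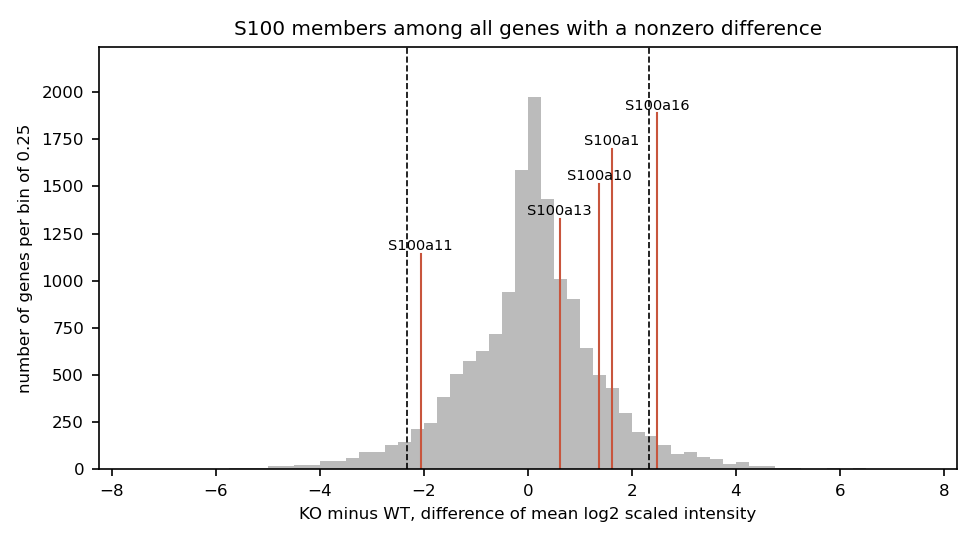
Number of genes (y axis) by the difference of mean log2 scaled intensity, KO minus WT (x axis, bins of 0.25), for genes detected over background in 1 cell or more with a difference other than 0, with dashed lines at 5-fold. The 5 members over the floor are marked on the brightest probe of each, from *S100a11* at -2.06 through *S100a13* at 0.61, *S100a10* at 1.37 and *S100a1* at 1.62 to *S100a16* at 2.49, the only member past a line.

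The other S100 genes were mostly at the floor. Of 9 listed, 3 were well above background in at least 1 cell and 0 were 5-fold apart. Of all named genes, 57.0% were detected this way, and 3.22% of those were at least 5-fold higher and 3.24% lower in KO cells. *S100a3* was well above background in all 8 cells but under the floor in each. *S100a5* passed the floor in KO cell 1 (6.77) and KO cell 4 (6.72), and *S100z* did so in KO cell 1 (7.13), the cell with *S100a1*. *S100a7a*, *S100a8*, *S100a9*, *S100a14*, *S100b* and *S100g* were not well above background in any cell, and neither *S100a2*, well above background in 7 cells, nor *S100a7l2*, both looked up later, passed the floor. Of the genes next to a member, *Chtop*, left of *S100a1*, had a difference of 0.60 with its brightest probe and of -1.45 and -1.51 with the others, and *Tchhl1*, left of *S100a11*, was not well above background in any cell.

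Of the 12 annexin genes, 9 were well above background in at least 1 cell, 6 with a higher and 2 with a lower mean in KO cells, 0 at least 5-fold apart, and their median difference was 1.68. Of all named genes, 57.0% were detected this way. Among them, 40.0% had a higher and 32.0% a lower mean in KO cells, and the others were equal. At least 5-fold apart were 3.22% higher and 3.24% lower. *Anxa6* had the widest (2.03), with WT cells at 6.33, 13.97, 12.75 and 14.85 and KO cells at 15.34, 11.65, 13.98 and 15.07. *Anxa2* stood at 1.68. *Anxa11* was measured only in KO cell 1 (12.58), the cell that held *S100a1*, and only with its brightest probe. Its dimmer probe was not well above background in any cell.

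Among 15 other EF-hand calcium sensors, 13 were well above background in at least 1 cell, beside 57.0% of all named genes, and the median difference of the 13 was 0.31. Against 3.22% higher and 3.24% lower over all genes, 2 were at least 5-fold higher in KO cells and 2 lower. The higher were *Pdcd6*, the gene of the membrane repair factor ALG-2 (3.34), and *Efhd2* (2.81). *Pdcd6* read 5.67, 12.38, 14.54 and 8.80 in WT cells and 13.49, 14.66, 14.07 and 12.53 in KO cells, which overlap at WT cell 3. *Efhd2* read 11.24, 9.22, 5.64 and 9.32 in WT cells and 12.74, 6.58, 13.01 and 14.36 in KO cells, where KO cell 2 lies among the WT cells. The dimmer *Efhd2* probe was not well above background in any cell.

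The lower were *Sri*, the gene of sorcin, a regulator of the ryanodine receptor (-3.97), and *Sdf4*, a Golgi calcium-binding protein gene (-2.61). *Sri* read 5.64, 9.13, 12.65 and 11.68 in WT cells and 5.64, 5.64, 6.31 and 5.64 in KO cells. *Sdf4* read 5.64, 8.76, 10.72 and 10.61 in WT cells and 5.64, 5.64, 8.18 and 5.83 in KO cells, while its 2 dimmer probes gave differences of -0.38 and 0.82, so that its probes disagree in direction. In both, WT cell 1 was at the floor with the low KO cells, as it was for *S100a11*.

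Of 12 genes whose proteins are reported partners of S100 proteins, 10 were well above background in at least 1 cell, 3 with a higher and 7 with a lower mean in KO cells, and the median difference was -1.08, beside 57.0% of all genes detected in 1 cell or more and the 40.0% with a higher and 32.0% with a lower mean among them. *Mdm2*, the ubiquitin ligase gene for p53, was the only gene past 5-fold (-3.43), beside 3.22% higher and 3.24% lower over all detected genes. Its WT cells read 5.64, 8.12, 11.52 and 10.99, and all KO cells were at the floor. The partner of S100A4, *Myh9*, had a difference of -1.16, that of S100A6, *Cacybp*, -2.18, and *Ahnak*, which binds the S100A10 complex, -1.33 with its brightest probe. *Ahnak* had 3 further probes, and none of them was well above background in any cell.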

How the data were processed

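Single endocardium cells were profiled on Agilent arrays (design 028005). The authors deposited the output of Feature Extraction 12.0.2.2, in which the intensity of each spot is background-subtracted and detrended within the array but not normalized between arrays. Probe positions are on mm9. Control and outlier spots were removed, spots averaged, and 55295 of 55681 probes usable on all 8 arrays kept. A probe was well above background when over 50% of its spots were. Arrays were scaled to their 50th percentile over the 7570 probes that passed this call on every array, floored at 50 and set to log2. Where a gene had several probes, its main or brightest probe was that of the highest average log2 level over the 8 cells. RefSeq (GRCm38.p6) named 28131 probes by accession and otherwise the file's name was kept. The members, lists and rules were chosen with earlier results of these data known. Named genes are all members with every probe, the other S100 genes, list genes at least 5-fold apart, *Anxa1*, *Anxa2* and *Ahnak*, the 3 genes with the highest r to each member, *Sox17*, and other genes named with a member's result, which were chosen after their values were seen.

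Cells are not replicates of a genotype, so that no test between genotypes was run. Smooth muscle and mesenchymal markers are listed with the limits. The number of arrays limits the precision, and depth is given as probes well above background. Python 3.11.15, numpy 2.4.6, pandas 2.3.3, matplotlib 3.10.9, and R 4.3.3 with limma 3.58.1 (normexp, offset 50) were used.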

Additional observations from a re-analysis of the deposited data

Results flagged for a closer look

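Within each genotype of 4 cells, a cell was singled out when its gap to the nearest other cell, divided by the range of the 4, exceeded Dixon's critical value for 4 values at 95%. Chance passes about 1 in 20 groups, and 5 of 18 passed. The groups are not independent, since they share cells and genes and the family was chosen on these values, so that this serves only to point to cells. For *S100a1*, KO cell 1 stood apart from the other KO cells with both probes, each with a ratio of 1.0, since all other KO cells were at the floor. *S100z* in KO cell 1 likewise had a ratio of 1.0. For *S100a13*, WT cell 1, the shallowest array, was the highest WT cell, with a ratio of 0.86. For the *S100a16* probe A_66_P114627, WT cell 2 was the highest WT cell, with a ratio of 0.866. The 3 ratios of 1.0 come from a single cell and are fixed by the floor in the others, and 2 of them are probes of the same gene.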

How the results depend on the processing

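The differences of *S100a1*, *S100a10*, *S100a11*, *S100a13* and *S100a16* moved by less than the SD between cells under every alternative, except *S100a16* as the mean of its 2 probes (4.38). Removing 1 of the 4 cells of a genotype cannot move a difference by that SD, whatever the values. For those settings the comparison with the SD is therefore no sign of stability. The SD of *S100a1* comes from KO cell 1 alone, and its difference without that cell was 0.00. Leaving out 1 cell gave 0.00 to 2.16 for *S100a1*, 0.27 to 2.93 for *S100a10*, -3.44 to -1.22 for *S100a11*, 0.41 to 0.82 for *S100a13* and 2.21 to 2.85 for *S100a16*. *S100a4* and *S100a6* lay under the floor of 50 in every cell, and other settings only set such faint values against each other, which gave differences of 0.34 and 0.36 with a floor of 10, 0.57 and 0.62 with no floor, 0.18 and 0.21 with normexp, and *S100a6* gave -0.18 after quantile normalization. The number of members at least 5-fold higher in KO was 1, but 0 under the 75th percentile, a floor set before scaling, the percentile of all probes, quantile normalization or normexp, and 2 with a floor of 10 (*S100a1* joined). It was 0 without KO cell 1 or WT cell 4 and at most 2 (without WT cell 2, with *S100a10* joining), and without KO cell 2 the 1 member was *S100a10* (2.93) in place of *S100a16* (2.22). The number at least 5-fold lower was 0, but 1, *S100a11*, under the 75th percentile, the earlier floor or the percentile of all probes, and ran from 0 to 1 over the left-out cells (1 without WT cell 1 or KO cell 3). The number with all KO above all WT cells was 0 under the 75th percentile and quantile normalization, and 1 to 2 over the left-out cells, *S100a13* joining without WT cell 1. *S100a11* had a larger difference than *S100a16* under the 75th percentile (-2.45 against 2.10), the earlier floor (-2.46 against 2.25) and the percentile of all probes (-2.51 against 2.25). The same held without WT cell 1 (-3.44 against 2.56) and without KO cell 3 (-3.25 against 2.84). The causes were not tested.

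Over all genes, 652 were at least 5-fold higher and 657 lower. The counts were 1850 and 1652 with no floor, 1181 and 1223 with a floor of 10, and 319 and 237 with a floor of 200. They were 518 and 798 under the 75th percentile, 497 and 754 with the earlier floor, 509 and 750 with the percentile of all probes, 555 and 1041 without WT cell 1, and 913 and 672 without KO cell 2. The median difference of all genes was 0.23 with normexp, 0.16 with a floor of 10 and 0.32 with no floor. Slide and scan could not be used as a block, since all arrays shared 1 of each. No paired analysis was possible because no source names the embryo of a cell. Scaled sums of 3 smooth muscle markers were 66.2 to 14376 in WT and 57.3 to 7724 in KO cells, and of 7 mesenchymal and epicardial markers 15.5 to 325.7 and 15.1 to 2427, all but *Twist1* of the latter under the floor.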
